A study of Mus musculus with 4 samples.

Results

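The genes of sphingolipid and ceramide metabolism were followed in cultured mouse ureters that lacked *Pparg* in the epithelium, with and without an agonist of SHH signaling. The set was a list of 39 gene names that covers the synthesis of ceramide, its conversion to sphingomyelin and glycosylceramides, and its breakdown to sphingosine and sphingosine-1-phosphate (S1P). Every probe of the array with a name from the list was taken, which gave 48 probes of 38 genes, out of 39429 probes and 29924 gene names in all. *Cers1* was the gene without a probe under that name. All 38 genes were tested, 36 of them were well above background in all 8 channels, and the exceptions were *Acer1* with 6 channels and *Ugt8a* with 5. *Ugt8a* passed the filter on dim probes only through *Pparg-cKO* pools.

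Sphingolipids are membrane lipids built on a long-chain base. Serine palmitoyltransferase makes the first intermediate, ceramide synthases attach a fatty acid, and a desaturase or hydroxylase completes the base. Ceramide then receives a phosphocholine or sugar head group, or is cleaved by ceramidases to sphingosine, which sphingosine kinases turn into S1P. In stratified epithelia, ceramides with hydroxylated bases and very long or hydroxylated acyl chains contribute to the permeability barrier, and the urothelium is the barrier epithelium of the ureter.

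Ureters were explanted at P0 from mice on the NMRI background and kept in culture for 8 days, either in DMSO alone or in 2 µM purmorphamine, a small-molecule agonist of the SHH signal transducer SMO. *Pparg-cKO* pools were Pax2-cre/+; Pparg (fl/fl), in which the *Pax2-cre* transgene removes exons of *Pparg* in the ureteric epithelium and leaves the gene intact in cells without cre. Control pools were Pparg (fl/?), that is cre-negative littermates with at least a floxed allele. The 4 groups (control with DMSO, control with purmorphamine, *Pparg-cKO* with DMSO, *Pparg-cKO* with purmorphamine) comprised 2 pools, of male ureters in replicate 1 and of female ureters in replicate 2. The 2 treatments of a genotype and sex shared a two-color array. Dyes were exchanged between the sexes, and how many ureters made a pool is not given in the sources used here.

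Values are normalized log2 intensities, with the standard error (SE) of each difference and p adjusted by Benjamini-Hochberg over 20229 genes in limma. With 2 pools per group the number of arrays limits the precision, and p judges a difference against the spread between these pools. The 2 pools of a group differ in sex and in dye, so that this spread holds both. In each channel, the spots well above background made up 66.3% to 70.5%, and no spot was saturated. *Shh*, which encodes the ligand of the pathway, lay at 12.54 and 12.41 in control and at 9.64 and 9.46 in *Pparg-cKO* pools with DMSO, and *Ptch1*, a target of the pathway, was higher with purmorphamine in both genotypes (log2 fold change 1.00, SE 0.12, adjusted p = 0.0427 in control; 1.62, SE 0.12, adjusted p = 0.014 in *Pparg-cKO*). The *Pparg* probe read 14.79 and 15.31 in control and 15.55 and 15.58 in *Pparg-cKO* pools with DMSO; the deletion leaves a truncated transcript, and the probe is therefore no check of the genotype. Markers of superficial urothelial cells were bright in every pool. The female *Pparg-cKO* pool with DMSO stood apart by its squamous markers: the summed level of 7 genes was 17.73 there and between 13.40 and 14.60 in the other pools.

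Promoter sequences are shown for 5 genes with negative differences between *Pparg-cKO* and control in DMSO and positive ones with purmorphamine in *Pparg-cKO*, because their promoters differ in composition. Of these, *Sptssb* and *Degs2* passed the test in both comparisons, *Sptlc3* and *Acer2* for purmorphamine only, and *Cers3* in neither. The RefSeq table used here (GRCm38.p6) matched 36 of the 39 names, without *Fa2h*, *Smpd3* and *Asah1*. The 250 bases upstream of the start are printed 5′ to 3′ on the strand of the gene, and capitals mark GGGCGG, the GC box, or AGGTCA, the hexamer that nuclear receptors recognise, on either strand. They lie at chr3:69859895-69860144 (minus strand) for *Sptssb*, chr2:139493663-139493912 (plus strand) for *Sptlc3*, chr7:66743254-66743503 (plus strand) for *Cers3*, chr12:108702307-108702556 (minus strand) for *Degs2* and chr4:86874164-86874413 (plus strand) for *Acer2*.
Sptssb: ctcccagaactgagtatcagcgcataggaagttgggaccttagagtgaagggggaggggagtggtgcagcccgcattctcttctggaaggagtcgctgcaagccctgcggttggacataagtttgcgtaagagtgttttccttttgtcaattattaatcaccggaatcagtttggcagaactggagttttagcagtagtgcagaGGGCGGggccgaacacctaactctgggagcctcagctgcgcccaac
Sptlc3: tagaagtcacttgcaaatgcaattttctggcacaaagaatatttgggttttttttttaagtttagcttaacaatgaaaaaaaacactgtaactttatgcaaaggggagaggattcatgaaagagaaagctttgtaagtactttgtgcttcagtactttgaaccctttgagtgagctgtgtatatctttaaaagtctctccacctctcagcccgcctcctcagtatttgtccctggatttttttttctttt
Cers3: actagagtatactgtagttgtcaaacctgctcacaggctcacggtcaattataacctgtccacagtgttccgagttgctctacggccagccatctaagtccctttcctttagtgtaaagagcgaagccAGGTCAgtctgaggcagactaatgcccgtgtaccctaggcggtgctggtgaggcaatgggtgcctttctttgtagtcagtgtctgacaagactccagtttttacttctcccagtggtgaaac
Degs2: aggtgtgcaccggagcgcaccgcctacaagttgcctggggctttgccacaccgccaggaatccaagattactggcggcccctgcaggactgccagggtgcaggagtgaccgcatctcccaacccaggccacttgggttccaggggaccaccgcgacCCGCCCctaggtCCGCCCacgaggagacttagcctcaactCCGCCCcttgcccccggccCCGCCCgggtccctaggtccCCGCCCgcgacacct
Acer2: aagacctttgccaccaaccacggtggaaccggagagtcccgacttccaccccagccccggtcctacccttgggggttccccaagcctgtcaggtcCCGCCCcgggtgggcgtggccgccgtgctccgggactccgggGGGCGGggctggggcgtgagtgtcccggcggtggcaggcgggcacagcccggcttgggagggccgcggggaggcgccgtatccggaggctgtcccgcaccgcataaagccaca
The *Degs2* promoter held 5 GC boxes and the *Acer2* promoter 2, against 1 in *Sptssb* and 0 in *Sptlc3* and *Cers3*. AGGTCA was found once in *Cers3* and in none of the other 4. G and C made up 35.6% of the bases in *Sptlc3*, 49.6% in *Cers3*, 53.2% in *Sptssb*, 69.2% in *Degs2* and 73.2% in *Acer2*. Among the 36 promoters of the set, 7 held AGGTCA (19.4%) and 25 held GGGCGG (69.4%), beside 13.8% and 32.9% of all 27025 promoters. The direct repeat of this hexamer with a single base between the copies, which includes AGGTCA and is the element named DR1, was in 0 of the 36, beside 0.037% of all promoters. GACCACCCA, a consensus of GLI factors, and AACCNGTT, one of grainyhead-like factors, were each in 0 of the 36, beside 0.211% and 1.71% of all promoters. The letters are a description of the sequence and not of binding.

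Loss of *Pparg* in DMSO cultures was accompanied by lower levels of a few genes of ceramide synthesis and hydroxylation. *Sptssb*, *Fa2h* and *Degs2* fell, and 34 genes did not pass the test. *Degs2* lost its call when the fit held a term for the replicate number, which marks sex and dye. *Ugt8a* was called higher, but both control pools were below the background threshold and the gene entered the test only through the group where it was high, so that its call is not counted here. The share called was 2% of all genes for higher and 1.9% for lower levels, beside 3 lower of these 38. The median difference was 0.00 over the 38 genes and 0.00 over all genes, and 25 of the 38 differed by less than 0.3. By the rule of the study's methods (intensity above 100 and a change of 1.5-fold or more, each in both pairs and one way), *Sptssb*, *Fa2h*, *Degs2*, *Cers3* and *Sptlc3* were decreased and 0 were increased, with 2.59% of all genes past that intensity increased and 2.92% decreased. In this bulk tissue, fewer cells of a type and less RNA per cell cannot be told apart.

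With purmorphamine in both genotypes, *Fa2h* and *Degs2* were still lower in *Pparg-cKO* pools, 2 of 38 genes, where 1.24% of all genes were called higher and 1.9% lower. Neither call held when the fit had a term for the replicate number. *Ugt8a* was again called higher and is not counted, because it passed the filter only through *Pparg-cKO* pools. The rule of the methods counted *Sptssb*, *Fa2h*, *Degs2* and *Sptlc3* as decreased and 0 as increased, beside 3.23% and 3.06% of all genes. Purmorphamine itself raised *Sptssb*, *Acer2*, *Fa2h*, *Degs2* and *Sptlc3* in *Pparg-cKO* pools and lowered *Ugcg*, where 2.02% of all genes were called higher and 3.1% lower. The rule of the methods gave the same 6 names, beside 3.88% of all genes increased and 4.79% decreased. In control pools 0 of the 38 genes passed the test, 10 had an unadjusted p under 0.05, as had 19.6% of all genes, and the lowest adjusted p was 0.0567 (0.405% of all genes were called higher and 1.12% lower). There the rule counted *Sptlc3* as increased and *Ugcg* as decreased, beside 2.76% and 3.69% of all genes. The interaction of genotype and treatment gave 0 calls in limma among the 38 and 0% among all genes, with a lowest adjusted p of 0.92 and 6 of the 38 at an unadjusted p under 0.05, beside 3.31% of all genes.

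The counts moved when single arrays were left out. Each omission leaves 1 array of a genotype, so that p then rests on the spread of the other genotype's arrays. None of the genes called between genotypes kept its call whichever array was left out, in DMSO or with purmorphamine. The share of all genes called under the same omission is not given, so that a loss of calls is no result about the set. The differences themselves moved little in DMSO, between -2.72 and -2.66 for *Sptssb*, -2.82 and -2.55 for *Fa2h* and -2.39 and -1.92 for *Degs2* over the 4 omissions. The 6 genes called for purmorphamine in *Pparg-cKO* became *Acer2* alone without *Pparg-cKO* replicate 2, the array with the squamous pool, and none of the 38 or of all genes passed on the processed signals or the authors' table, although the 6 differences had the same direction there, with adjusted p between 0.0892 and 0.14. Over the omissions, the difference with purmorphamine in *Pparg-cKO* lay between 1.46 and 1.53 for *Acer2* and between 1.09 and 1.52 for *Fa2h*. It lay between 1.54 and 2.43 for *Sptssb* and between -2.02 and 0.12 for *Acer1*. The low end for *Acer1* came from the array with the squamous pool alone.

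**Figure D1:**
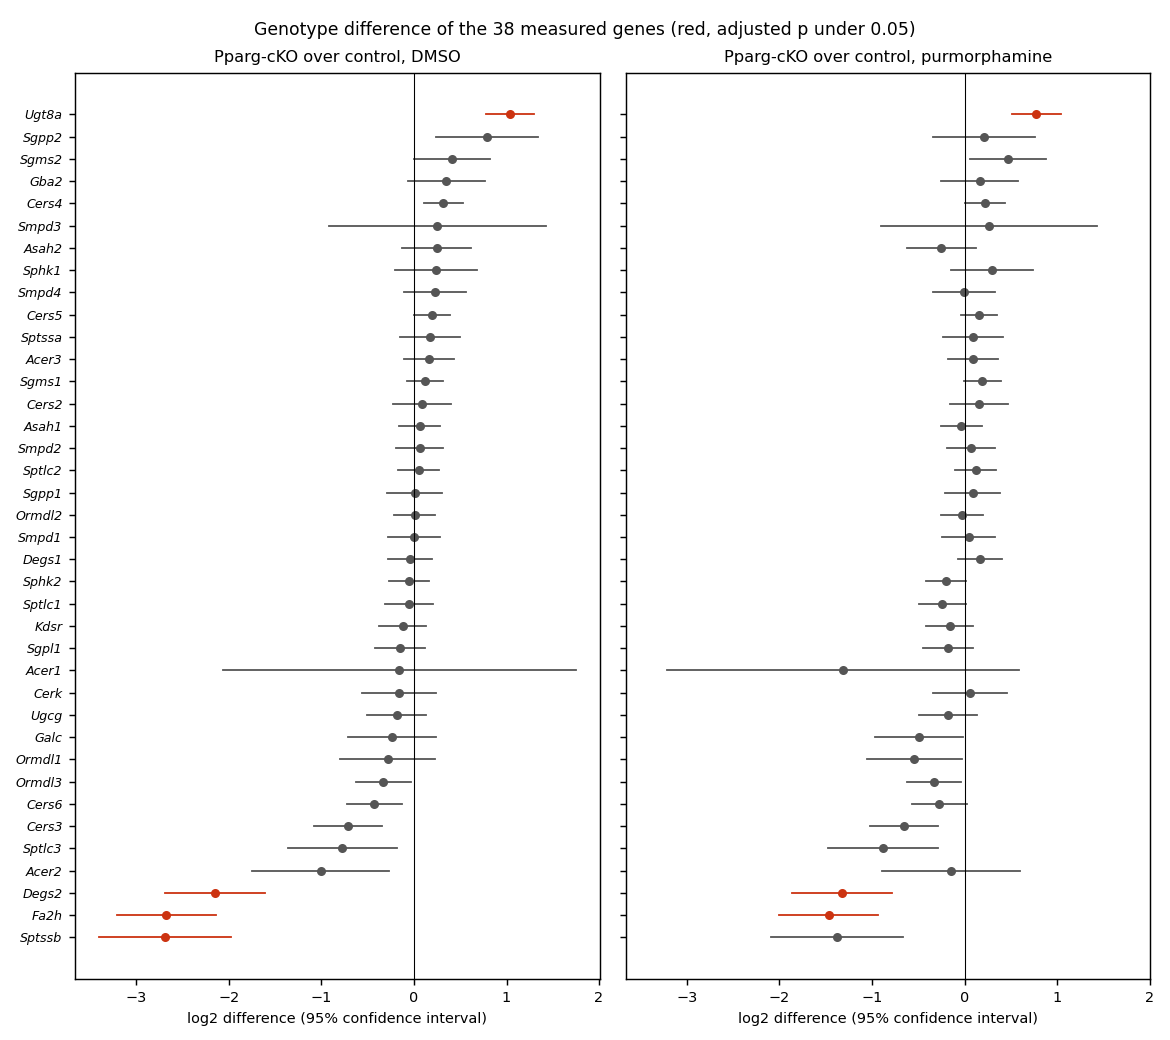
Log2 difference between *Pparg-cKO* and control pools (horizontal axis) with its 95% confidence interval for each of the 38 measured genes (vertical axis), with DMSO at left and purmorphamine at right; red marks an adjusted p under 0.05. *Sptssb*, *Fa2h* and *Degs2* lie far to the left of the other genes with DMSO, at -2.69, -2.68 and -2.15, and at -1.38, -1.47 and -1.32 with purmorphamine. *Ugt8a* is drawn in red too, but it passed the filter on dim probes only through *Pparg-cKO* pools. Its points and intervals are no exact difference, and its color is no support of one.

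Serine palmitoyltransferase consists of *Sptlc1* with *Sptlc2* or *Sptlc3*, and a small subunit, *Sptssa* or *Sptssb*, that raises its activity and shapes its choice of acyl-CoA. *Sptssb* was measured at 12.47 and 12.42 in control pools with DMSO, 12.82 and 13.43 in control pools with purmorphamine, 9.77 and 9.74 in *Pparg-cKO* pools with DMSO and 11.32 and 12.18 in *Pparg-cKO* pools with purmorphamine, male before female. Each *Pparg-cKO* pool lay below every control pool, and the DMSO pools lay lowest. The probe maps to chr3:69624024-69624083 (minus strand, mm9). With DMSO *Sptssb* was 6.46-fold lower in *Pparg-cKO* (log2 -2.69, SE 0.30, adjusted p = 0.00626). Purmorphamine raised it 3.97-fold in *Pparg-cKO* pools (log2 1.99, SE 0.26, adjusted p = 0.0291; 1.54 male, 2.43 female), and the difference in control pools was 0.67 (SE 0.26, adjusted p = 0.258). The treated *Pparg-cKO* mean of 11.75 lay 73.9% of the way from 9.76 to the control DMSO mean of 12.45 on the log2 scale. Between genotypes under purmorphamine the difference was -1.38 (SE 0.30, adjusted p = 0.0685).

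The other small subunit, *Sptssa*, did not follow *Sptssb*: its group means were 13.53, 13.49, 13.71 and 13.58 in the same order of groups. *Sptlc3*, the subunit that widens the range of acyl chains, was measured at 11.06 and 11.27 in control pools with DMSO, 11.79 and 12.46 with purmorphamine, 10.18 and 10.61 in *Pparg-cKO* pools with DMSO and 11.09 and 11.41 with purmorphamine. The *Pparg-cKO* pools with DMSO were below all others. Purmorphamine raised *Sptlc3* in *Pparg-cKO* pools (log2 0.85, SE 0.14, adjusted p = 0.0445), and the difference was as large in control pools without passing the test (0.96, SE 0.14, adjusted p = 0.0603). The genotype differences were -0.77 (SE 0.25, adjusted p = 0.184) with DMSO and -0.88 (SE 0.25, adjusted p = 0.139) with purmorphamine. A second, dimmer *Sptlc3* probe gave -0.50 and -0.47 for the same contrasts. *Sptlc1* lay between 12.66 and 13.08 and *Sptlc2* between 13.17 and 13.61 in all 8 pools.

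The ORMDL proteins inhibit serine palmitoyltransferase when ceramide is plentiful. *Ormdl1*, *Ormdl2* and *Ormdl3* differed by -0.33 to 0.01 between genotypes with DMSO and by -0.26 to 0.10 with purmorphamine in *Pparg-cKO*, and 0 of the 3 passed in any comparison. The lowest adjusted p of the 3 was 0.141, for *Ormdl2* in treated *Pparg-cKO* over untreated control pools. *Kdsr*, the reductase of the next step, had group means of 13.25, 13.44, 13.13 and 13.28.

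Ceramide synthases differ in the acyl chains they attach, and *Cers3* serves the very long chains of barrier epithelia. *Cers3* was measured at 13.53 and 13.71 in control pools with DMSO, 13.91 and 14.27 with purmorphamine, 12.78 and 13.04 in *Pparg-cKO* pools with DMSO and 13.38 and 13.50 with purmorphamine. All 4 *Pparg-cKO* values were below all 4 control values. The genotype difference of -0.71 with DMSO (SE 0.15) had an adjusted p of 0.058, and its second probe gave -0.80. *Cers4*, with preference for long chains, was measured at 10.10 and 10.19, 10.73 and 10.67, 10.50 and 10.42, and 10.91 and 10.94 in the same order. The pools with purmorphamine were the higher ones in each genotype, by 0.56 (SE 0.11, adjusted p = 0.0849) in control and 0.46 (SE 0.11, adjusted p = 0.0795) in *Pparg-cKO*. *Cers4* passed in the comparison of treated *Pparg-cKO* with untreated control pools (log2 0.78, SE 0.09, adjusted p = 0.0056). *Cers6* lay lower in *Pparg-cKO* pools with DMSO by 0.43 without passing (SE 0.12, adjusted p = 0.143), and *Cers2* lay between 14.09 and 14.46 and *Cers5* between 13.77 and 13.98 in the 8 pools.

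*Fa2h* adds the hydroxyl group to the fatty acid of ceramide, and *Degs2* adds one to the long-chain base. *Fa2h* was measured at 13.09 and 13.00 in control pools with DMSO, 13.08 and 13.20 with purmorphamine, 10.22 and 10.51 in *Pparg-cKO* pools with DMSO and 11.31 and 12.03 with purmorphamine. The control pools lay between 13.00 and 13.20 whatever the treatment, and the *Pparg-cKO* pools were below them. The gene was 6.40-fold lower in *Pparg-cKO* with DMSO (log2 -2.68, SE 0.22, adjusted p = 0.00282), 2.77-fold lower with purmorphamine (-1.47, SE 0.22, adjusted p = 0.0248), and 2.47-fold higher with purmorphamine within *Pparg-cKO* (1.31, SE 0.14, adjusted p = 0.0208). Its probe is at chr8:113869096-113869155 (minus strand, mm9).

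*Degs2* was measured at 13.61 and 13.26 in control pools with DMSO, 13.66 and 13.77 with purmorphamine, 11.05 and 11.52 in *Pparg-cKO* pools with DMSO and 12.13 and 12.65 with purmorphamine. The groups did not overlap between genotypes, and the treated *Pparg-cKO* pools stood between the other two levels. The log2 differences were -2.15 (SE 0.23, adjusted p = 0.00549) between genotypes with DMSO, -1.32 (SE 0.23, adjusted p = 0.0342) with purmorphamine and 1.11 (SE 0.14, adjusted p = 0.0272) for purmorphamine in *Pparg-cKO*. The treated *Pparg-cKO* mean lay 48.7% of the way to the control DMSO mean for *Fa2h* and 51.6% for *Degs2*. *Degs1*, the general ceramide desaturase, gave -0.04 with DMSO (SE 0.10, adjusted p = 0.908), with levels between 14.62 and 15.01 in all pools.

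**Figure D2:**
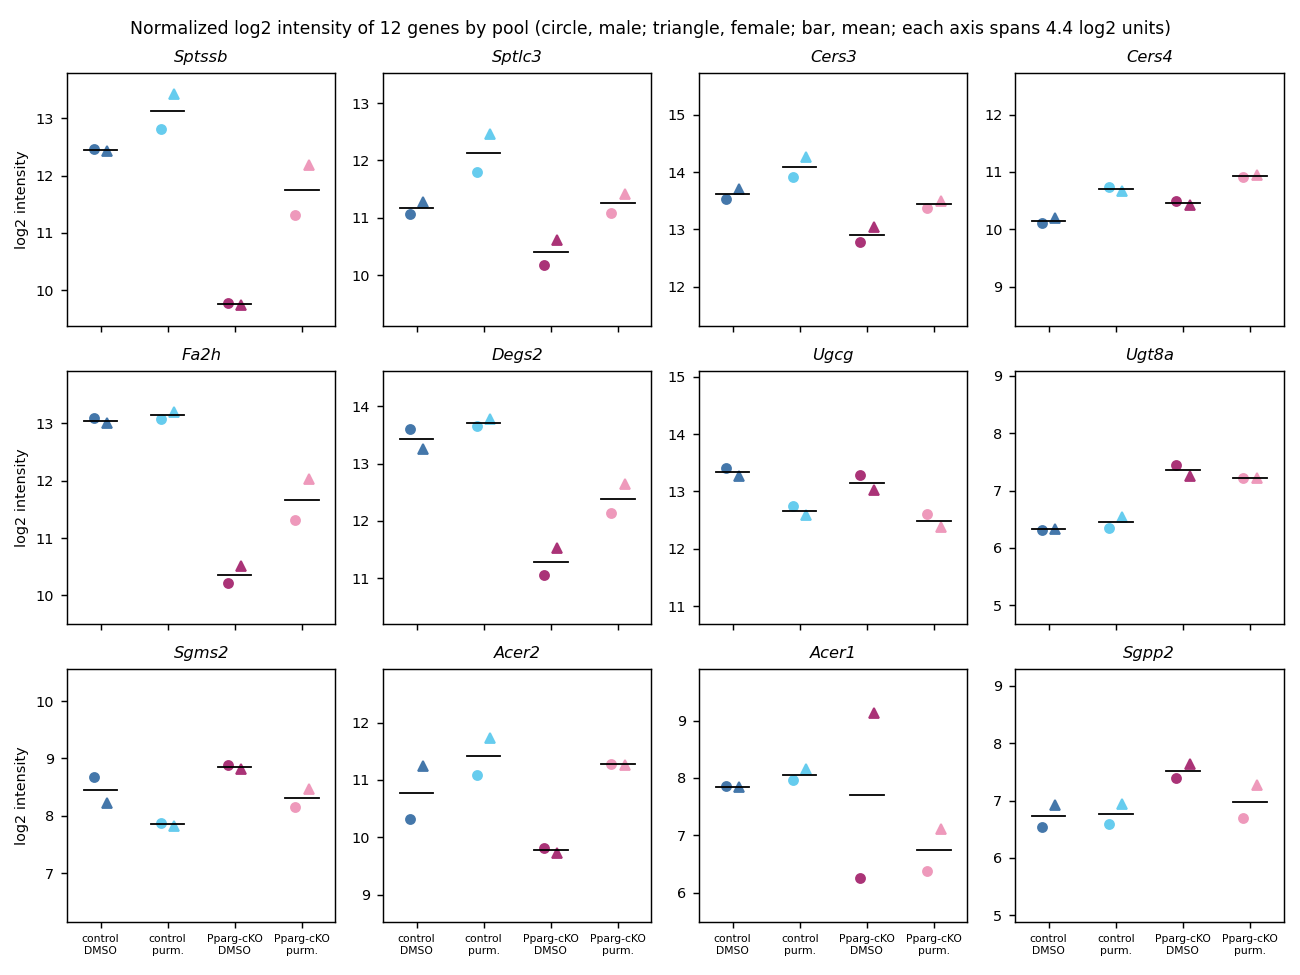
Normalized log2 intensity (vertical axes, each 4.4 units long) of 12 genes in the 4 groups (horizontal axes); a circle is the male pool, a triangle the female pool and a bar the mean of both. *Sptssb*, *Fa2h* and *Degs2* are lowest in *Pparg-cKO* with DMSO and higher with purmorphamine, whereas *Ugcg* is lower with purmorphamine in both genotypes and *Acer1* is split between the sexes in *Pparg-cKO* with DMSO (6.26 male, 9.13 female).

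Ceramide receives its head group from *Ugcg* (glucose), *Ugt8a* (galactose), *Sgms1* and *Sgms2* (phosphocholine) or is phosphorylated by *Cerk*. *Ugcg* was measured at 13.41 and 13.27 in control pools with DMSO, 12.75 and 12.58 with purmorphamine, 13.28 and 13.02 in *Pparg-cKO* pools with DMSO and 12.60 and 12.38 with purmorphamine. All treated pools were below all untreated pools. The difference with purmorphamine was nearly equal in both genotypes, -0.66 in *Pparg-cKO* (SE 0.10, adjusted p = 0.0352) and -0.67 in control (SE 0.10, adjusted p = 0.0567), and the difference of these effects was 0.01 (95% confidence interval -0.35 to 0.36). *Sgms2* followed a like order without passing (-0.60 in control, SE 0.16, adjusted p = 0.142; -0.54 in *Pparg-cKO*, SE 0.16, adjusted p = 0.134), from 8.67 and 8.22 in control pools with DMSO to 7.87 and 7.83 with purmorphamine. Its genotype differences were 0.41 (SE 0.17, adjusted p = 0.321) with DMSO and 0.46 (SE 0.17, adjusted p = 0.254) with purmorphamine. *Cerk* and *Sgms1* passed in 0 of the 6 comparisons.

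*Ugt8a* was dim, and it passed the filter on dim probes only through *Pparg-cKO* pools. It was measured at 6.31 and 6.33 in control pools with DMSO, 6.35 and 6.54 with purmorphamine, 7.45 and 7.25 in *Pparg-cKO* pools with DMSO and 7.22 and 7.22 with purmorphamine. Neither control pool with DMSO was well above background, so that the level there has only a bound, set by the lowest signal that was well above background on those arrays. Against that bound *Pparg-cKO* pools with DMSO were at least 1.89-fold higher, and the bound itself was not tested. With purmorphamine 1 of the 2 control pools measured it, so that no exact difference is given there. Markers of Schwann cells, in which *Ugt8a* makes the galactolipids of myelin, had summed levels of 14.39 and 14.46 in control and 14.43 and 14.41 in *Pparg-cKO* pools with DMSO, and 0 of the 4 of these markers tested were called in either genotype comparison. Markers of nephron and collecting duct, 6 in number, had summed levels of 9.68 and 9.05 in control and 10.28 and 10.40 in *Pparg-cKO* pools with DMSO, where 1 of the 6 was well above background in both control pools and 6 in both *Pparg-cKO* pools, and of 9.02 to 9.11 in all 4 treated pools; their part in the *Ugt8a* level was not tested.

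Of the sphingomyelinases, which release ceramide from sphingomyelin, *Smpd1*, *Smpd2*, *Smpd3* and *Smpd4* passed in 0 of the 6 comparisons, with genotype differences in DMSO between 0.00 and 0.25. *Smpd3* varied most between pools of a group, at 7.34 male and 8.34 female in control with DMSO and at 7.54 and 8.64 in *Pparg-cKO* with DMSO. The glycosylceramidases *Gba2* and *Galc* gave 0.35 (SE 0.17, adjusted p = 0.416) and -0.24 (SE 0.20, adjusted p = 0.676) with DMSO.

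Ceramidases cut ceramide to sphingosine, and *Acer2* is the Golgi enzyme among them. *Acer2* was measured at 10.31 and 11.25 in control pools with DMSO, 11.09 and 11.74 with purmorphamine, 9.82 and 9.72 in *Pparg-cKO* pools with DMSO and 11.28 and 11.26 with purmorphamine. The *Pparg-cKO* pools with DMSO were the lowest, and with purmorphamine they reached the range of the control pools. Purmorphamine raised *Acer2* 2.83-fold in *Pparg-cKO* pools (log2 1.5, SE 0.12, adjusted p = 0.0146), and the difference in control pools was 0.64 (SE 0.12, adjusted p = 0.0831). The genotype difference with DMSO was -1.01 (SE 0.31, adjusted p = 0.167), at -0.50 for the male and -1.52 for the female pair, and with purmorphamine it was -0.15 (SE 0.31, adjusted p = 0.898). The second *Acer2* probe gave 1.57 for purmorphamine in *Pparg-cKO*.

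*Acer1*, the ceramidase of the epidermis, was measured at 7.86 and 7.84 in control pools with DMSO, 7.96 and 8.15 with purmorphamine, 6.26 and 9.13 in *Pparg-cKO* pools with DMSO and 6.38 and 7.11 with purmorphamine. Both male *Pparg-cKO* pools were too dim to be well above background, and it was highest in the female *Pparg-cKO* pool with DMSO. The difference with purmorphamine in *Pparg-cKO* was -0.95 (SE 0.49, adjusted p = 0.349), and it was 0.12 without the female array. In the same pool the squamous keratin *Krt1* was at 14.46, against 7.25 in the male pool, and the cornified envelope gene *Lor* was at 15.69 against 9.93; the part of squamous cells in the *Acer1* level was not tested. Acid ceramidase (*Asah1*) lay between 14.80 and 14.97 and *Acer3* between 11.96 and 12.40 in the 8 pools, and neutral ceramidase (*Asah2*) passed in 0 comparisons.

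S1P is formed by *Sphk1* and *Sphk2*, dephosphorylated by *Sgpp1* and *Sgpp2* and cleaved by *Sgpl1*, and 0 of these 5 genes passed in any comparison. *Sgpp2* was measured at 6.54 and 6.92 in control pools with DMSO, 6.59 and 6.94 with purmorphamine, 7.39 and 7.64 in *Pparg-cKO* pools with DMSO and 6.69 and 7.27 with purmorphamine. These levels are dim, with a processed signal at the floor of 15 in both male control pools and of 51.07 at most. The *Pparg-cKO* pools with DMSO were the highest, by 0.79 (SE 0.23, adjusted p = 0.147) over control, and the difference with purmorphamine in *Pparg-cKO* pools was -0.54 (SE 0.12, adjusted p = 0.0797). *Sphk1* was at 14.16 and 14.22 in control pools with DMSO and at 13.95 and 13.46 with purmorphamine (-0.49, SE 0.17, adjusted p = 0.216). Its genotype difference under purmorphamine was 0.30 (SE 0.19, adjusted p = 0.544).

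**Figure D3:**
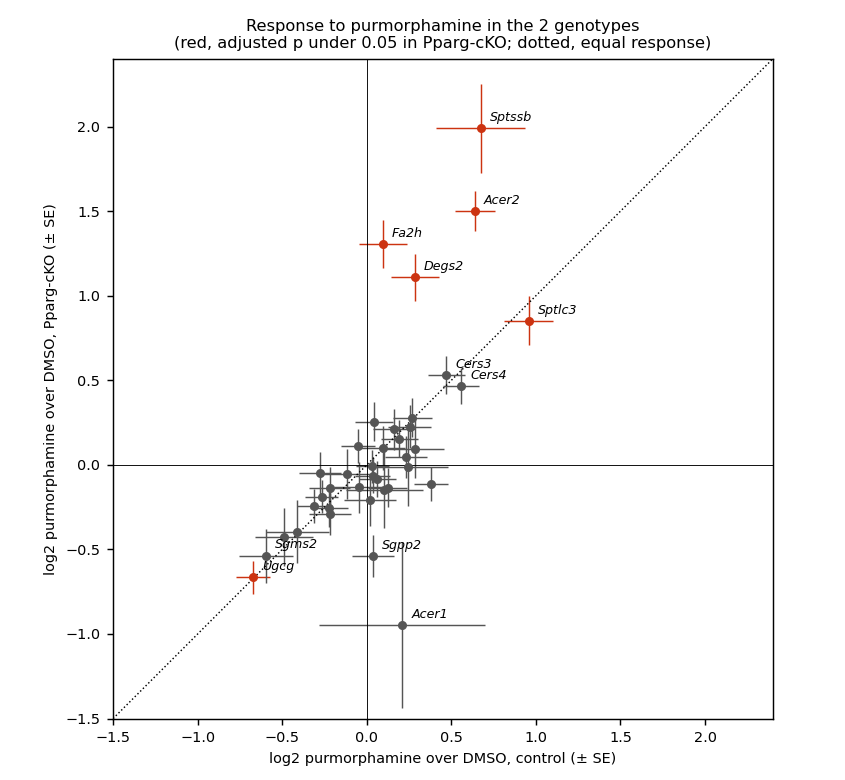
Log2 difference of purmorphamine over DMSO in control (horizontal axis) and in *Pparg-cKO* pools (vertical axis) for the 38 genes, with bars of 1 standard error; red marks an adjusted p under 0.05 in *Pparg-cKO* and the dotted line an equal response. *Sptssb*, *Acer2*, *Fa2h* and *Degs2* lie above the line, at 1.99, 1.5, 1.31 and 1.11 in *Pparg-cKO*, whereas *Sptlc3* and *Ugcg* lie near it.

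The responses to purmorphamine in the 2 genotypes come from different arrays. They had the same direction for 27 of the 38 genes (71.1%), beside 76.4% of all genes. The response was larger in *Pparg-cKO* by 1.32 for *Sptssb* (SE 0.37, unadjusted p = 0.0168), 1.21 for *Fa2h* (SE 0.20, unadjusted p = 0.00188), 0.86 for *Acer2* (SE 0.17, unadjusted p = 0.00344) and 0.82 for *Degs2* (SE 0.20, unadjusted p = 0.00888) in limma, and both *Pparg-cKO* arrays exceeded both control arrays for each of the 4. None of these differences passed after adjustment over all genes, with adjusted p of 1, 0.92, 0.98 and 1.

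Treated *Pparg-cKO* pools were also compared with untreated control pools, to ask how far they remained from the untreated control. *Fa2h* (log2 -1.37, SE 0.22, adjusted p = 0.0155), *Degs2* (-1.04, SE 0.23, adjusted p = 0.0333) and *Ugcg* (-0.85, SE 0.13, adjusted p = 0.0132) were lower and *Cers4* was higher. *Ugt8a*, which passed the filter only through *Pparg-cKO* pools, was at least 1.73-fold higher, a bound that was not tested. *Sptssb* differed by -0.70 (SE 0.30, adjusted p = 0.181), at -1.16 for the male and -0.25 for the female pair. Of all genes 5.51% were called higher and 5.88% lower, beside 1 higher (*Cers4*) and 3 lower of the 38, *Ugt8a* not counted. By the rule of the methods *Cers4* was increased and *Fa2h* and *Ugcg* were decreased, beside 5.33% and 5.15% of all genes. None of these genes kept its call whichever single array was left out. Over these omissions the difference lay between -1.733 and -1.025 for *Fa2h* and between -1.303 and -0.783 for *Degs2*. It lay between -0.96 and -0.742 for *Ugcg* and between 0.738 and 0.822 for *Cers4*.

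Around the set, 48 of 53 further genes of sphingolipid biology were tested, for fatty acid elongation, acylceramide, complex glycosphingolipids, lysosomal breakdown and S1P export and receptors. Between genotypes in DMSO *Spns2* was called higher and 0 of the 48 lower, beside 2% and 1.9% of all genes. *S1pr5* was called higher too and is not counted, for the reason given below. *Spns2*, the exporter of S1P, was measured at 11.24 and 10.99 in control and 11.97 and 12.01 in *Pparg-cKO* pools with DMSO (log2 0.88, SE 0.12, adjusted p = 0.0112). The genotype difference with purmorphamine was 1.05 (SE 0.12, adjusted p = 0.0109). *S1pr5*, an S1P receptor, lay at 8.09 in the squamous female and 7.31 in the male *Pparg-cKO* pool and at 6.49 and 6.36 in control. In control 1 of the 2 pools was well above background with either treatment, and the gene passed the filter only through *Pparg-cKO* pools, so that its call is no support of a difference. *Gal3st1*, which sulfates galactosylceramide, differed by -1.14 (SE 0.27, adjusted p = 0.0793) with DMSO.

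Between genotypes with purmorphamine in both, 1 of the 48 was called higher in *Pparg-cKO* than in control pools (*Spns2*). There 3 were called lower, beside 1.24% of all genes higher and 1.9% lower. The 3 were *Hacd2* (log2 -0.76, SE 0.13, adjusted p = 0.0328) and *Hsd17b12* (-0.52, SE 0.09, adjusted p = 0.0401) of the cycle that lengthens fatty acids, and *Naaa*, a lysosomal amidase (-0.74, SE 0.14, adjusted p = 0.0426). Within *Pparg-cKO*, where 2.02% of all genes were called higher and 3.1% lower, purmorphamine raised *St3gal5*, the GM3 synthase, from 11.61 and 11.82 to 12.24 and 12.58 (0.69, SE 0.11, adjusted p = 0.0387) and lowered *B4galnt1*, which makes GM2, from 10.09 and 10.51 to 9.46 and 9.47 (-0.84, SE 0.15, adjusted p = 0.0483). *S1pr5* differed by -0.80 (SE 0.16, adjusted p = 0.0625). *B4galt5*, which makes lactosylceramide from the product of *Ugcg*, had differences of -0.83 (SE 0.20, adjusted p = 0.0872) in *Pparg-cKO* and -1.12 (SE 0.20, adjusted p = 0.0775) in control. In control pools 0 of the 48 were called and 11 had an unadjusted p under 0.05, beside 19.6% of all genes; *Elovl4* (0.90, SE 0.32, adjusted p = 0.226) and *Gal3st1* (-0.71, SE 0.14, adjusted p = 0.0939) had the next largest differences. The interaction gave 0 calls in limma among the 48 and 1 gene at an unadjusted p under 0.05. That gene was *S1pr5*, which passed the filter only through *Pparg-cKO* pools, so that its value is no support of a difference. The largest values after *S1pr5* were -0.72 for *Aloxe3* and -0.68 for *Elovl4*. Treated *Pparg-cKO* over untreated control pools gave, beside 5.51% and 5.88% of all genes, 1 higher, *Spns2* (1.13), and 5 lower, *Gal3st1* (-1.48), *Naaa* (-1.08), *Hsd17b12* (-0.65), *Abhd5* (-0.65), an activator of lipolysis needed for acylceramide, and *Hacd2* (-0.63).

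Marker levels moved beside these genes. Of the 7 superficial cell markers 5 fell in *Pparg-cKO* pools with DMSO and 6 rose there with purmorphamine, and their summed level was 17.43 and 17.77 in control with DMSO, 18.25 and 18.54 in control with purmorphamine, 16.79 and 16.71 in *Pparg-cKO* with DMSO and 17.70 and 18.01 in *Pparg-cKO* with purmorphamine. *Sptssb*, *Fa2h* and *Degs2* followed this order between the genotypes with DMSO and with treatment in *Pparg-cKO*. In treated *Pparg-cKO* pools these 3 genes were below both control pools with DMSO, as were the superficial markers *Krt20* (11.97 and 13.13 against 13.62 and 14.03) and *Upk3b* (12.15 and 12.45 against 12.54 and 12.85). The other superficial markers were not. *Upk1a* (15.68 and 16.16 against 14.86 and 15.38), *Upk1b* and *Upk3a* were above both control pools, and *Upk2* and *Hsd17b2* overlapped them. Of the 5 basal and of the 7 squamous markers 0 were called between genotypes with DMSO. The rule of the methods counted the squamous markers *Krt16*, *Krt6b* and *Lor* as increased there, beside 2.59% of all genes. Each of these had the larger difference in the female pair. Between genotypes with purmorphamine, the basal marker *Trp63* (adjusted p = 0.0106 in limma) and *Ivl* of the squamous list (adjusted p = 0.0441) were lower in *Pparg-cKO* pools. In fetal control ureters the study saw *Ivl* in superficial and intermediate cells, at reduced levels without *Pparg*, so that it is no marker of squamous cells alone. It was the brightest of the squamous list in control pools with DMSO (13.25 and 13.12) and weighs on the summed level. Purmorphamine lowered the basal marker *Krt15* in both genotypes and the squamous marker *Krt6a* in *Pparg-cKO*. The summed level of 5 fat markers was 17.72 and 18.12 in control and 17.15 and 16.65 in *Pparg-cKO* pools with DMSO, and 17.72 and 17.39 in control and 14.38 and 16.98 in *Pparg-cKO* pools with purmorphamine. Of the 4 fat markers tested 0 were called between genotypes, whereas the rule of the methods counted *Adipoq*, *Fabp4* and *Plin1* as decreased with DMSO. The summed level of 5 smooth muscle markers was between 17.67 and 18.13 with DMSO and between 18.60 and 18.83 with purmorphamine, and that of 4 endothelial markers was 13.39 and 12.72 in control and 13.64 and 13.73 in *Pparg-cKO* pools with DMSO, and 14.11 and 14.13 in control and 14.54 and 14.72 in *Pparg-cKO* pools with purmorphamine. *Kdr* was the endothelial marker called higher between genotypes with DMSO (log2 0.88, SE 0.16, adjusted p = 0.0348). The 5 macrophage and leukocyte markers summed to 17.27 to 17.55 with DMSO and to 16.69 to 17.15 with purmorphamine, with 0 called between the genotypes. Purmorphamine lowered *Adgre1* in *Pparg-cKO* pools (adjusted p = 0.0363 in limma). In control pools 0 of these markers were called, and the rule of the methods counted *Adgre1*, *Csf1r* and *Ptprc* as decreased. The part of these cell types in the differences was not tested.

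**Figure D4:**
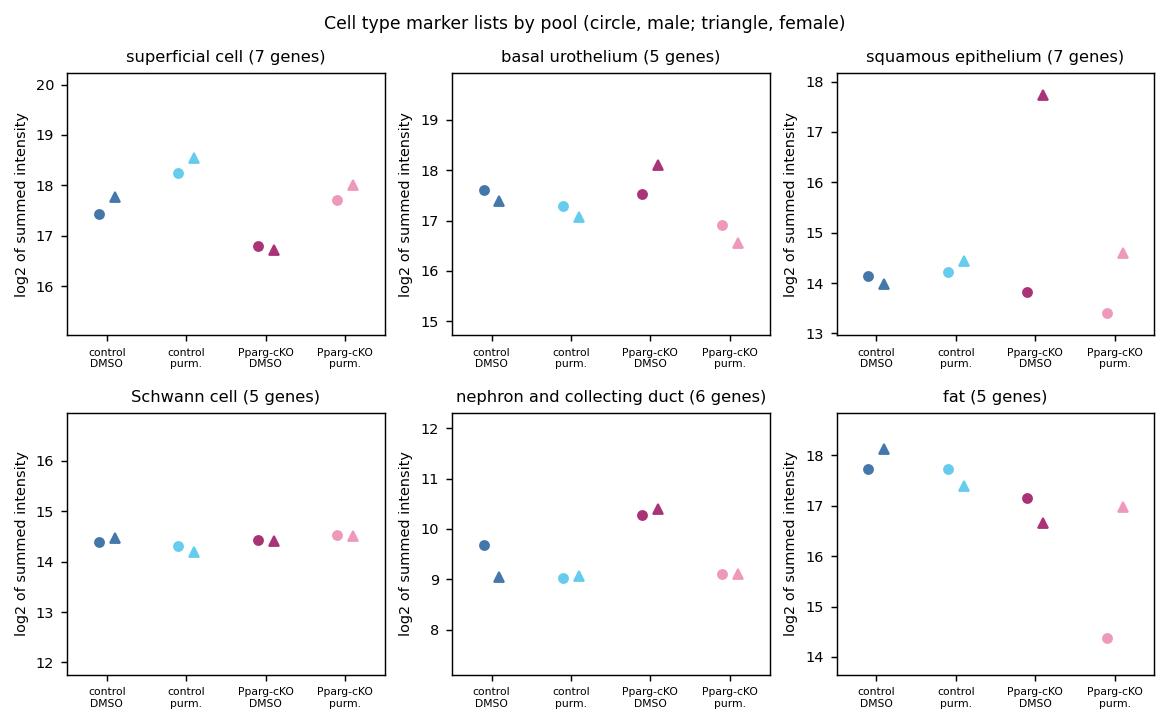
Log2 of the summed intensity of 6 marker lists (vertical axes, each 5.2 units long) in the 4 groups (horizontal axes); a circle is the male and a triangle the female pool. The superficial cell sum is lowest in *Pparg-cKO* with DMSO (16.79 and 16.71), and the squamous sum is 17.73 in the female pool of that group against 13.82 in the male.

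Among the 10 genes with 2 probes, both probes gave the same direction for 7 between genotypes with DMSO, 10 with purmorphamine and 9 for purmorphamine within either genotype. The largest gap between probes was 0.41, for *Sptlc3* between genotypes under purmorphamine.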

How the data were processed

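RNA of 8 sex-sorted pools of P0 ureters cultured for 8 days was hybridized to 4 two-color Agilent arrays on 1 slide. The mean and local background intensity of each spot was deposited from Agilent Feature Extraction 10.7.3.1 (per the submitters' processing notes), along with a processed intensity that this software corrects for background and dye bias. Dye assignments came from the labels. The deposited log10 ratio sets red over green, and served to check dye directions. The deposited score in the series table is a fold change with a sign, purmorphamine over DMSO, of unstated normalization. On the log2 scale it correlated with the scanner ratio across probes (Pearson's r 0.995 to 0.997).

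Intensities were corrected by normexp with an offset of 50, which compresses the fold changes of dim genes, and normalized by loess within arrays. Spots of a probe (4) were averaged and outlier spots left out. Genotypes were compared with limma 3.58.1 in R 4.3.3 by a separate-channel fit after Aquantile normalization (intraspot correlation 0.059), and purmorphamine with DMSO by the log ratio within arrays. Of all probes, 27064 passed a filter (in 1 group or more, both pools well above background) and were tested; the brightest stood for each of 20229 genes. A bound sets the group mean against the lowest signal well above background. The rule of the methods used processed intensities scaled to a 75th percentile of 1500 with a floor of 15. Alternatives were the processed signals, no background correction, no filter, mean over probes, other normalization between arrays, a replicate block and leaving out each array, for which the intraspot correlation of all arrays was used. Both fits were tested on simulated data.

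Full statistics are given for members past the adjusted p of 0.05, those counted by the rule of the methods, *Sptssb*, and the 3 largest differences each way in the first 4 comparisons; for the further sphingolipid genes, those past that threshold and the 3 largest differences per comparison. No exact difference in level between genotypes is given for *Ugt8a* and *S1pr5*, because control pools were below the background threshold. Single marker genes were named after their values were seen. Members and lists were chosen with earlier results of these data known. Median background was 21 to 76 per channel. Probe positions are those of the array files (mm9), without an annotation of that build, so that exon or UTR was not assigned, and promoters are from RefSeq (GRCm38.p6). The level of 1 marker gene is not reported here.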

Additional observations from a re-analysis of the deposited data

Results flagged for a closer look

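For 4 genes the differences with purmorphamine had opposite signs in the genotypes on both arrays of each. None of them passed the test for purmorphamine in limma in either genotype, some values were near 0, and the adjusted p of the interaction in limma was 1 for all 4. The effect in *Pparg-cKO* minus that in control was -0.49 for *Asah2* (0.36 and 0.41 in control; -0.16 and -0.07 in *Pparg-cKO*), and its second probe gave -0.09 (0.06 in control; -0.03 in *Pparg-cKO*). It was -0.58 for *Sgpp2* (0.05 and 0.02 in control, -0.71 and -0.37 in *Pparg-cKO*), whose processed signal was at or near the floor in control pools. It was -0.26 for *Ugt8a* (0.04 and 0.21; -0.24 and -0.03), which was not well above background in 3 of the 4 control channels, and 0.16 for *Cers6* (-0.09 and -0.01; 0.07 and 0.15). The unadjusted p in limma was 0.0175, 0.0211, 0.171 and 0.316 in this order.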

How the results depend on the processing

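Of 396 values of the named genes under the alternatives, 317 kept their direction and their side of the threshold, 70 lost the threshold, 8 gained it and 1 reversed: *Acer1* with purmorphamine in *Pparg-cKO* was 0.12 without *Pparg-cKO* replicate 2 and -2.02 without *Pparg-cKO* replicate 1. Leaving out 1 array at a time gave 0 to 5 called genes of the set between genotypes in DMSO, 0 to 4 with purmorphamine, 0 to 1 for purmorphamine in control, 1 to 6 in *Pparg-cKO*, 0 to 1 for the interaction and 0 to 4 for treated *Pparg-cKO* over untreated control. Between genotypes with purmorphamine, 1 gene was called on the processed signals, 0 with the replicate block and 5 without normalization between arrays. For purmorphamine in *Pparg-cKO*, 0 were called on the processed signals, 0 on the authors' table and 2 without a filter on dim probes; in control, 1 was called by the separate-channel fit. For treated *Pparg-cKO* over untreated control, 3 were called with the replicate block. By the rule of the methods with a 2-fold threshold, 3 genes changed between genotypes in DMSO, 0 with purmorphamine in control and 0 in treated *Pparg-cKO* over untreated control, where 5 changed without the intensity threshold. The causes of these shifts were not tested. The limma counts were made over the whole set, so that *Ugt8a* is in them wherever it passed. The share of all genes called under each omission is not given here.

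Replicate numbers mark sex and dye and no shared litter. The main fits did not take the numbers as pairs. Deviations of same-numbered pools correlated at -0.15 with DMSO and 0.47 with purmorphamine over 20229 genes. With purmorphamine, deviations were thus in part shared between same-numbered pools, which the main fits do not take into account. The replicate block called 4 genes between genotypes in DMSO (*Sgpp2* in place of *Degs2*), 0 for purmorphamine in control, 5 in *Pparg-cKO* and 0 for the interaction. *Ugt8a* is among the 4, and its call is no support of a difference, because it passed the filter only through *Pparg-cKO* pools. Over all genes, calls for purmorphamine in *Pparg-cKO* went from 1036 to 0 on the processed signals and on the authors' table and to 323 without the filter, and in control from 308 to 0, 0 and 13. Between genotypes in DMSO they went from 789 to 495 on the processed signals and 340 with the replicate block, with purmorphamine from 635 to 228 and 156 and to 953 without normalization between arrays, and for treated *Pparg-cKO* over untreated control from 2304 to 808 with the block. A 2-fold threshold in the rule of the methods left 405 of 849, 357 of 962, 300 of 988, 470 of 1335 and 675 of 1617 genes for genotype in DMSO, genotype with purmorphamine, purmorphamine in control, purmorphamine in *Pparg-cKO* and treated *Pparg-cKO* over untreated control. The signal over background limited *Ugt8a* and *Acer1*, and the processed signal of *Sgpp2* was at or near the floor in control pools.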
